A study of Mus musculus with 9 samples.

Results

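Expression of the phagocyte NADPH oxidase, its proton channel and the inducible nitric oxide synthase was followed in sorted mouse microglia. The 7 genes are Cybb, Cyba, Ncf1, Ncf4, Rac2, Hvcn1 and Nos2, taken by symbol from 22180 genes on the arrays, and each had 1 probe set. There were 9 arrays in 3 genotypes, with 3 arrays each, from female C57Bl/6 mice aged 24 to 28 weeks that had all received 8 mg tamoxifen at 6 weeks of age. The wild type label names no modified allele. FAD mice are labelled FAD Hdac1/2fl/fl: FAD is the usual short name of mice with familial Alzheimer's disease transgenes, whose promoter the labels do not give, and the alleles of the histone deacetylase genes Hdac1 and Hdac2 are floxed. FAD DKO mice carried the same transgenes and floxed alleles together with Cx3cr1CreERT2, a tamoxifen-inducible Cre recombinase driven from the fractalkine receptor locus, which is active in microglia and in other macrophages. FAD therefore differs from wild type in the transgenes and in the floxed alleles, and FAD DKO differs from FAD in the Cre allele as well as in the deletion. The labels do not say whether the arrays of a genotype came from separate mice, so the tests measure the spread between these samples, which may be technical.

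The NADPH oxidase of phagocytes moves electrons from NADPH across the membrane onto oxygen and so makes superoxide. Its membrane core is a heterodimer encoded by Cybb and Cyba. On activation the cytosolic subunits, among them those encoded by Ncf1 and Ncf4, join the core together with a Rac GTPase, for which Rac2 is the isoform of blood cells. The proton channel encoded by Hvcn1 lets protons follow the electrons and so balances the charge. Nos2 encodes the inducible nitric oxide synthase, which makes nitric oxide from arginine after inflammatory stimulation. In microglia the oxidase is known as a source of superoxide after activation, and mouse microglia in culture induce Nos2 after bacterial or interferon stimulation.

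Promoter windows of the RefSeq table (build GRCm38.p6, 300 bases around a gene's start, 250 of them before it) were given for 3 of the 7 genes, Cybb, Cyba and Ncf1. Those of Cybb and Ncf1 are shown because these genes had the largest differences between genotypes and the differences had opposite signs. The windows were searched on both strands for GAGGAA, a sequence bound by the myeloid transcription factor PU.1, and for CCAAT, which is a CCAAT box. Other or shorter forms of these sequences were not searched. The letters of the motifs do not overlap in these windows. Matches are in capitals. The 250 bases before the start, 5′ to 3′ on the minus strand, were at chrX:9469325-9469574 for Cybb and at chr5:134229626-134229875 for Ncf1, and the 30 bases that follow the Cybb start at chrX:9469295-9469324.
Cybb before the start: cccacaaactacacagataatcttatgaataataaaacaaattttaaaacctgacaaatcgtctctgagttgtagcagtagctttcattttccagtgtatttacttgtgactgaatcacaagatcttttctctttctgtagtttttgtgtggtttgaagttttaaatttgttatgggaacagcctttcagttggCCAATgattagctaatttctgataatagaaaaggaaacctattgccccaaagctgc
Cybb after the start: tgttttcatTTCCTCatcagaagaagaagc
Ncf1 before the start: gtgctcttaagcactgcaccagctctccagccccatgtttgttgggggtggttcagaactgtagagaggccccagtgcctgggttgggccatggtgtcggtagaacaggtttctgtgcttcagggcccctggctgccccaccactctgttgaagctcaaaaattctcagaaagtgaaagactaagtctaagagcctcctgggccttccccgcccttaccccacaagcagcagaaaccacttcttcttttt
Cybb held CCAAT from 56 to 52 bases before the start and GAGGAA, on the opposite strand, from base 10 to base 15 after it. The windows of Ncf1 and Cyba held neither motif. Of 32851 windows of 300 bases in the table, 28.3% held GAGGAA and 37.4% held CCAAT, so either motif is common, and a match is no evidence of binding.

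The labelled cell type was checked against its markers, and 0 of 11 measured microglia markers had a mean under 5.35 on the deposited log2 scale, the median over all probe sets. P2ry12, a purinergic receptor of resting microglia, averaged 12.09, 12.03 and 11.91 in wild type, FAD and FAD DKO. The summed linear signal of these 11 markers was 25274 to 26218 in wild type, 23988 to 24538 for FAD and 22322 to 23688 for FAD DKO. This sum includes Cx3cr1, the locus that carries the Cre, which averaged 12.12 for FAD and 11.88 for FAD DKO. Without it, a choice made after the values were seen, the sums were 20675 to 21447, 19481 to 20066 and 18703 to 19722, so that FAD and FAD DKO overlapped and both lay below wild type. Markers of neurons (8 of 10) and of lymphocytes (10 of 12) mostly lay below that median, whereas 3 of 17 measured markers of neutrophils and monocytes did. Hdac1 lay between 7.41 and 7.64 on the FAD DKO arrays against 8.03 to 8.65 on the others. Hdac2 lay between 7.61 and 7.90 against 8.22 to 8.56, so the deleted genes go against no label. Neither passed over all genes. FAD DKO minus FAD was -0.56 for Hdac1 and -0.68 for Hdac2 (limma adjusted p = 0.376 and 0.159). Against wild type the limma adjusted p was 0.0702 for Hdac1 and 0.128 for Hdac2. The arrays had medians between 5.346 and 5.398. Precision is limited by the number of arrays; over all genes a difference had a median SE of 0.104 (log2).

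Rac2, Cyba and Ncf1 gave the brightest signals among the 7 genes, at the 97.2, 96.5 and 96.2 percentile of all genes by their mean over 9 arrays. Ncf4 and Hvcn1 lay at the 88.7 and 88.6 percentile and Cybb at the 78.4 percentile. Nos2 lay at the 41.6 percentile, below the median of all probe sets on every array. Signals of different probe sets are not comparable as amounts, so this order describes the arrays and not the numbers of transcripts.

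Cybb, the catalytic subunit that carries the electrons, stood at 6.47, 7.19 and 6.60 (log2 signal) on the wild type arrays, at 7.63, 7.65 and 7.31 on the FAD arrays, and at 6.83, 7.38 and 7.07 on the FAD DKO arrays. Every FAD array lay above every wild type array, with 7.31 and 7.19 as the nearest pair, and the FAD DKO arrays overlapped both other genotypes. The mean was 6.75 ± 0.383 in wild type, 7.53 ± 0.191 for FAD and 7.09 ± 0.276 for FAD DKO (SD, n = 3). FAD minus wild type was 0.78 on the log2 scale (SE 0.204, 95% interval 0.32 to 1.24), or 1.71-fold, and did not pass over all genes (limma adjusted p = 0.386). FAD DKO minus FAD was -0.44 (95% interval -0.90 to 0.02, limma adjusted p = 0.628). FAD DKO minus wild type was 0.34 (95% interval -0.12 to 0.80, limma adjusted p = 0.727). The FAD DKO mean lay between the other means, and the last difference ran from 0.20 without FAD DKO replicate 2 to 0.56 without wild type replicate 2, and was 0.15 with array weights.

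Cyba encodes the partner chain that stabilizes the catalytic subunit in the membrane. Its signals were 9.14, 9.10 and 8.91 in wild type, 8.69, 9.15 and 9.11 for FAD, and 9.13, 9.10 and 9.20 for FAD DKO. The genotypes overlapped, and FAD replicate 1 was the lowest of the 9 arrays. FAD minus wild type was -0.06 (95% interval -0.34 to 0.22, limma adjusted p = 0.918) and 0.08 without FAD replicate 1. FAD DKO minus FAD was 0.16 (95% interval -0.12 to 0.44, limma adjusted p = 0.740) and 0.014 without that array. FAD DKO minus wild type was 0.10 (95% interval -0.18 to 0.38, limma adjusted p = 0.887). The chains of the membrane core therefore had unlike values, with Cybb apart between FAD and wild type and Cyba overlapping; whether these differences of the 2 genes differ was not tested.

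Ncf1, the cytosolic organizer that docks the other subunits onto the membrane core, stood at 9.14, 9.36 and 9.12 in wild type. Its FAD signals were 8.74, 8.95 and 8.95, and its FAD DKO signals 8.85, 8.95 and 8.66. All 6 arrays of the FAD background lay below all wild type arrays, and FAD and FAD DKO overlapped. The means were 9.21 ± 0.131, 8.88 ± 0.122 and 8.82 ± 0.144 in wild type, FAD and FAD DKO (SD, n = 3). FAD minus wild type was -0.33 (SE 0.104, 95% interval -0.56 to -0.09, limma adjusted p = 0.493). FAD DKO minus wild type was -0.39 (SE 0.104, 95% interval -0.62 to -0.15, limma adjusted p = 0.309). FAD DKO minus FAD was -0.06 (95% interval -0.29 to 0.18, limma adjusted p = 0.897), and 0.02 without FAD DKO replicate 3. None of these passed over all genes.

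Ncf4, which encodes a further cytosolic subunit that binds a phosphoinositide of the phagosome membrane, varied least among the 7 genes, from 7.79 to 8.02 over the 9 arrays with an SD of 0.0576. Its differences were 0.04 for FAD minus wild type, -0.08 for FAD DKO minus FAD and -0.04 for FAD DKO minus wild type, and 0.00066 for the last without FAD DKO replicate 1. The 95% interval of FAD DKO minus FAD ran from -0.23 to 0.07, and the other 2 were as wide.

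Rac2, the GTPase that switches the assembled oxidase on, stood at 9.48, 9.39 and 9.28 in wild type, 9.31, 9.22 and 9.37 for FAD, and 9.19, 9.28 and 9.03 for FAD DKO. FAD arrays overlapped both other genotypes. The FAD DKO arrays lay just below the wild type arrays, with 9.277 and 9.284 as the nearest pair. FAD DKO minus wild type was -0.22 (SE 0.088, 95% interval -0.42 to -0.02) and did not pass over all genes (limma adjusted p = 0.558). FAD minus wild type was -0.09 and FAD DKO minus FAD -0.13 (limma adjusted p = 0.825 and 0.701). Rac2 and Ncf4 lie on the same chromosome in the RefSeq table, with 10 protein-coding genes between them.

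Hvcn1, the proton channel, ranged from 7.82 to 7.97 in wild type, from 7.87 to 8.02 for FAD and from 7.79 to 7.99 for FAD DKO. The genotypes overlapped in all 3 comparisons. The differences were 0.06, -0.07 and -0.01 for FAD against wild type, FAD DKO against FAD and FAD DKO against wild type. The last ran from -0.07 to 0.03 over the fits without 1 array and took the opposite sign without wild type replicate 2 or FAD DKO replicate 3.

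Nos2 stood at 5.01, 4.99 and 5.34 in wild type, 5.13, 5.04 and 5.04 for FAD, and 5.10, 5.06 and 4.95 for FAD DKO. The genotypes overlapped, and the highest array was wild type replicate 3. Detection calls were not used here, so whether this signal stood above background is not known. The differences were -0.04, -0.04 and -0.08 in the same order of comparisons. The first and the last were above 0 without wild type replicate 3 (0.07 and 0.04), and FAD DKO minus FAD was above 0 without FAD DKO replicate 3 (0.0086).

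**Figure D1:**
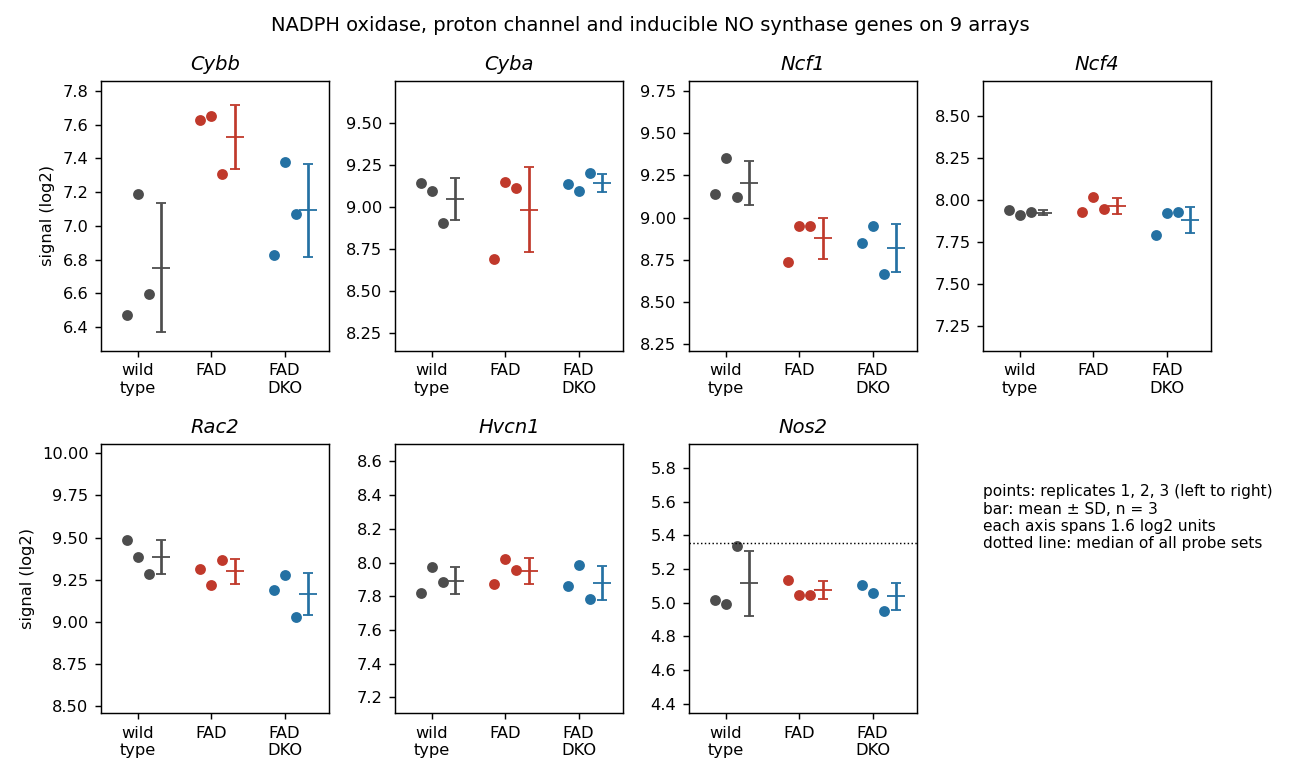
Signal of each of the 7 genes (log2, vertical axis, each spanning 1.6 log2 units) on every array of wild type, FAD and FAD DKO, with points for replicates 1, 2 and 3 and a bar for mean ± SD (n = 3). Cybb stands at 7.31 to 7.65 in FAD against 6.47 to 7.19 in wild type, Ncf1 at 8.74 to 8.95 against 9.12 to 9.36, and Nos2 below the dotted median of all probe sets.

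Setting the genes side by side, FAD against wild type gave 3 of 7 genes above 0 and 4 below, with a median difference of -0.04 against -0.01 over all genes. In limma 0 of the 7 passed an adjusted p under 0.05, where 9 of 22180 genes did (0.0406%). At an unadjusted p under 0.05 there were 2, Cybb above 0 and Ncf1 below, against 8.43% of all genes. The same 2 genes were those whose groups did not overlap, against 11.8% of all genes. Their differences had opposite signs.

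In FAD DKO against FAD, which differ in the deletion and in the Cre allele, 1 gene (Cyba) lay above 0 and 6 lay below. The median difference was -0.07 against 0.01 over all genes. Of the 7 genes 0 passed an adjusted p under 0.05 in limma (0.0225% of all genes), 0 an unadjusted p under 0.05 (8.1%), and 0 had groups that did not overlap (11.9%). This comparison shares the FAD arrays with the first, with opposite sign.

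In FAD DKO against wild type, 2 genes (Cybb and Cyba) lay above 0 and 5 below, with a median of -0.04 against 0.00 over all genes. None of the 7 passed an adjusted p under 0.05 in limma, where 31 genes of 22180 did (0.14%). At an unadjusted p under 0.05 there were 2, Ncf1 and Rac2, both below 0 (8.14% of all genes), and the same 2 had groups that did not overlap (11.9% of all genes). The wild type arrays are shared with the first comparison and the FAD DKO arrays with the second.

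**Figure D2:**
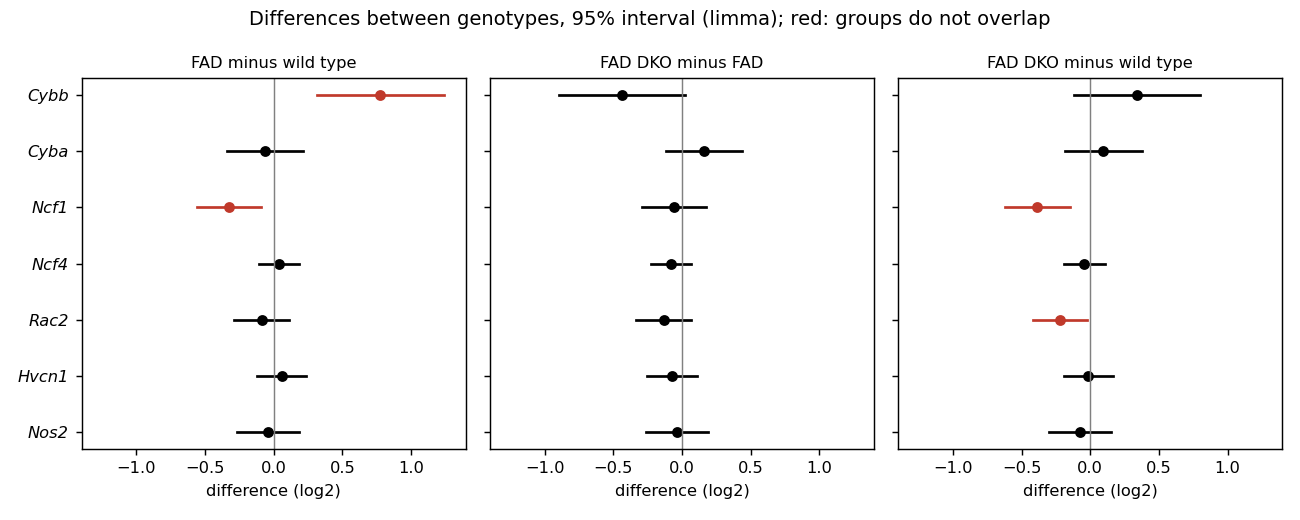
Difference between genotypes (log2, horizontal axis) for each of the 7 genes, with its 95% interval from limma, in panels for FAD against wild type, FAD DKO against FAD, and FAD DKO against wild type. Red marks genes whose groups do not overlap: Cybb at 0.78 and Ncf1 at -0.33 in the first panel, none in the second, and Ncf1 at -0.39 and Rac2 at -0.22 in the last.

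Because Cybb and Ncf1 lay on opposite sides of 0, their difference was taken within each array, a choice made after the values were seen. Cybb minus Ncf1 was -2.67, -2.17 and -2.52 (log2) in wild type, -1.11, -1.30 and -1.64 for FAD, and -2.02, -1.57 and -1.59 for FAD DKO. All FAD and FAD DKO arrays lay above all wild type arrays, and FAD and FAD DKO overlapped. The mean was higher by 1.10 in FAD and by 0.73 in FAD DKO than in wild type. Each had p = 0.1 in a two-sided exact permutation test, which is the smallest p that 3 against 3 arrays allow. For FAD this p was fixed in advance, since Cybb lay above and Ncf1 below wild type on every FAD array. It restates that separation and adds no support to it. For FAD DKO, Ncf1 was already apart from wild type, while Cybb overlapped. FAD DKO minus FAD was -0.38 (p = 0.3, two-sided exact permutation test). The design cannot reach p under 0.05 in such a test.

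Neutrophils and monocytes also express the oxidase, and their markers varied between arrays. The summed linear signal of 17 measured markers was 2171, 3666 and 4197 in wild type, 3978, 3896 and 3812 for FAD, and 1432, 6623 and 3851 for FAD DKO. S100a8, which encodes a calcium-binding protein abundant in neutrophils, ranged from 8.63 to 11.39 among FAD DKO arrays and from 10.39 to 10.46 among FAD arrays. From high to low Cybb, the replicates ran 2, 3, 1 in FAD DKO, 2, 1, 3 in FAD and 2, 3, 1 in wild type. From high to low summed markers they ran 2, 3, 1 in FAD DKO, 1, 2, 3 in FAD and 3, 2, 1 in wild type. The orders were the same in FAD DKO only. Wild type replicate 3 had more summed marker signal than every FAD array and a Cybb signal of 6.60, below every FAD array. FAD DKO replicate 2 had the most marker signal of all, with Cybb at 7.38 and Ncf1 at 8.95. In FAD against wild type 16 of 17 markers lay above 0 with a median of 0.24, where 47.9% of all genes lay above 0. Of these markers 0 passed over all genes (1 at an unadjusted p under 0.05). The wild type means include replicate 1, whose sum of 2171 was the lowest of that genotype. S100a8 was 9.41 on that array and 10.46 and 10.67 on the other wild type arrays, against 10.39 to 10.46 in FAD. The part of these cells in the values of the oxidase genes was not tested, and in bulk samples fewer cells of a type and less RNA per cell cannot be told apart.

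**Figure D3:**
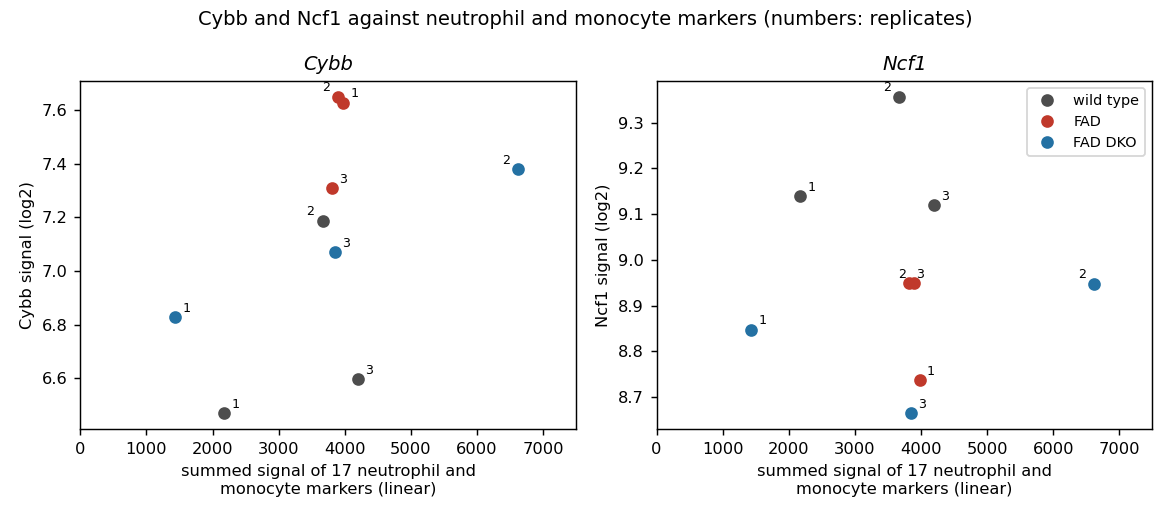
Signal of Cybb and of Ncf1 (log2, vertical axes) against the summed linear signal of 17 neutrophil and monocyte markers (horizontal axis) on the 9 arrays, coloured by genotype and numbered by replicate. FAD arrays lie close together in marker signal (3812 to 3978), while FAD DKO arrays span 1432 to 6623; wild type replicate 3 has 4197 with Cybb at 6.60.

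Border macrophage markers (8 measured, 3 below the median of all probe sets) summed to 359 to 404 in wild type, 358 to 415 for FAD and 332 to 403 for FAD DKO. Lymphocyte markers (12 measured) are of interest since lymphocytes express Rac2 and B cells express Hvcn1. Their sums were 403 to 430 in wild type, 334 to 381 for FAD and 394 to 424 for FAD DKO. The largest share of each sum came from 1 gene, Cd79b. Its signals were 7.01 to 7.32 in wild type, 6.56 to 6.97 for FAD and 7.01 to 7.12 for FAD DKO. In FAD against wild type 5 of the 12 lymphocyte markers lay above 0 and 7 below, with a median of -0.036. The lower FAD sums therefore lean on Cd79b, and sums without it were not taken. The microglia marker sums given above were lower in FAD and FAD DKO than in wild type, with and without Cx3cr1. The means of Ncf1, Rac2 and Nos2 were lower in both as well, whereas that of Cybb was higher in both. Those of Cyba, Ncf4 and Hvcn1 were higher in one and lower in the other. Of the 11 microglia markers 1 lay above 0 and 10 below in FAD against wild type, with a median of -0.093. In FAD DKO against FAD, 6 of the 11 lay above 0, with a median of 0.015. In FAD DKO against wild type 3 lay above 0 and 8 below, with a median of -0.050. Over all genes 47.9%, 53.2% and 51.3% lay above 0 in the same order of comparisons. Neuron markers summed to 264 to 291, 279 to 285 and 269 to 308, and those of astrocytes, oligodendrocytes and vessels to 638 to 677, 636 to 745 and 633 to 654. Of these marker lists 1 gene passed over all genes, Flt1, at 1.26 in FAD DKO against wild type (0.14% of all genes passed). It was named after its value was seen. In this comparison 4 of the 12 genes of its list lay above 0 and 8 below, with a median of -0.03. Pecam1, another vessel marker, went the other way, at 6.11 to 6.27 in FAD DKO against 6.49 to 6.77 in wild type. The part of any of these cell types in the values was not tested.

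The surroundings of the oxidase and of nitric oxide synthesis were read from 7 lists with 118 measured genes of 139. In limma 0 of the 118 passed an adjusted p under 0.05 in any of the 3 comparisons, and 20, 8 and 23 had an unadjusted p under 0.05 in FAD against wild type, FAD DKO against FAD and FAD DKO against wild type (16.9%, 6.78% and 19.5%, against 8.43%, 8.1% and 8.14% of all genes). The list medians lay between -0.08 and 0.06. Most genes named below were picked for their smallest p over the comparisons, so groups without overlap partly follow from that choice. Over all genes, groups did not overlap in 11.8%, 11.9% and 11.9% in the same order of comparisons.

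Among other subunits and oxidases of the family (10 measured of 14), Cybc1, the chaperone needed for the membrane core, stood at 7.93, 7.99 and 7.94 in wild type, 7.84, 7.84 and 7.92 for FAD and 8.01, 8.12 and 8.10 for FAD DKO. The FAD DKO arrays lay above both other genotypes. FAD DKO minus FAD was 0.21 (SE 0.063, limma adjusted p = 0.432). Rac1, the ubiquitous relative of Rac2 and the brightest of the list, differed by -0.01 between FAD DKO and wild type. Nox3 averaged 3.93, far below the median of all probe sets, and Duoxa1 overlapped between FAD and wild type.

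Among genes that activate the oxidase (25 measured of 31), 8 lay above 0 and 17 below in FAD against wild type, with a median of -0.04. In FAD DKO against FAD 12 lay above 0 and 13 below, with a median of -0.03. In FAD DKO against wild type 6 lay above 0 and 19 below, with a median of -0.08. Over all genes 47.9%, 53.2% and 51.3% lay above 0 in the same order. The first and the last comparison share the wild type arrays. Vav2, an exchange factor for Rac, had the smallest p of the 118 genes. It stood at 8.36, 8.13 and 7.95 in wild type, 7.74, 7.81 and 7.84 for FAD and 7.56, 7.52 and 7.44 for FAD DKO, and no genotypes overlapped. FAD DKO minus wild type was -0.64 (SE 0.102, limma adjusted p = 0.0681); the adjusted p was 0.0188 with a trended and robust variance, 0.0197 with a low-signal filter, and 0.0351 with array weights, within a range of 0.0188 to 0.222 over all alternatives. Clec7a, a beta-glucan receptor that triggers the oxidase, stood at 7.09, 6.80 and 6.46 in wild type, 7.09, 8.74 and 7.82 for FAD and 8.11, 8.81 and 8.44 for FAD DKO. FAD DKO minus wild type was 1.67 (SE 0.370, limma adjusted p = 0.181). Pik3r5, a regulatory subunit of the phosphoinositide kinase downstream of chemoattractant receptors, was at -0.25 in FAD against wild type (limma adjusted p = 0.458). Tyrobp, the signalling adaptor and brightest of the list, was at 0.10 in FAD DKO against wild type.

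Of the genes of nitric oxide and arginine (18 measured of 21), the largest difference was in Slc7a1, a transporter that brings arginine into the cell. It stood at 6.02, 6.30 and 6.37 in wild type, 7.12, 6.49 and 6.59 for FAD and 6.09, 6.17 and 5.98 for FAD DKO. The FAD arrays lay above both other genotypes, with FAD DKO minus FAD at -0.65 (SE 0.164, limma adjusted p = 0.343). Gucy1b1, a subunit of the nitric oxide receptor, averaged 4.34, below the median of all probe sets. Qdpr, which regenerates the cofactor of the synthase, was at 0.26 in FAD DKO against wild type (limma adjusted p = 0.564) and at 0.17 with array weights, and overlapped. Pts, of the same cofactor pathway, was at -0.17 in FAD against wild type and overlapped as well.

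Genes that induce Cybb and Nos2 (15 measured of 17) held Ifngr1, a chain of the interferon gamma receptor, at 10.70, 10.65 and 10.65 in wild type, 10.38, 10.31 and 10.36 for FAD and 10.47, 10.39 and 10.47 for FAD DKO. No 2 genotypes overlapped. FAD minus wild type was -0.32 (SE 0.061, limma adjusted p = 0.175); this passed with a trended and robust variance (adjusted p = 0.0281, in a range up to 0.418 over all alternatives). Hif1a, the oxygen-responsive transcription factor, was at 0.62 in FAD against wild type (limma adjusted p = 0.192), with no overlap. Myd88, the adaptor of Toll-like receptors, was at -0.20 in FAD DKO against wild type (limma adjusted p = 0.404), with no overlap.

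Antioxidant defence (26 measured of 29) had medians of 0.03, -0.03 and 0.01. Sod3, the extracellular superoxide dismutase, was at 0.31 in FAD DKO against FAD (limma adjusted p = 0.306), from a mean of 5.24 over the 9 arrays, below the median of all probe sets. Hmox1, haem oxygenase, was at 0.39 in FAD DKO against wild type, whereas Srxn1, sulfiredoxin, and Txnip, the thioredoxin inhibitor and brightest of the list, were at -0.29 and -0.22. None of these 4 passed, and none overlapped. In the supply of NADPH (10 measured of 12), Mthfd1, a folate cycle enzyme, was at 0.40 in FAD against wild type (limma adjusted p = 0.261), with no overlap. Pgd, the pentose phosphate dehydrogenase that makes NADPH and the brightest of the list, was at -0.05 in FAD DKO against FAD. Rpe and Me1 overlapped in the comparisons where they had their smallest p.

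Ion channels and pH of the phagosome (14 measured of 15) had medians of 0.06, -0.06 and 0.02. Kcnk6, a potassium channel and the brightest of the list, was at -0.35 in FAD against wild type (limma adjusted p = 0.480). Trpm2, a cation channel opened by oxidants, was at -0.32, and Atp6v1b2, a subunit of the proton pump, at 0.28 in FAD DKO against wild type (limma adjusted p = 0.427 each). In these 3 genes the groups did not overlap.

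**Figure D4:**
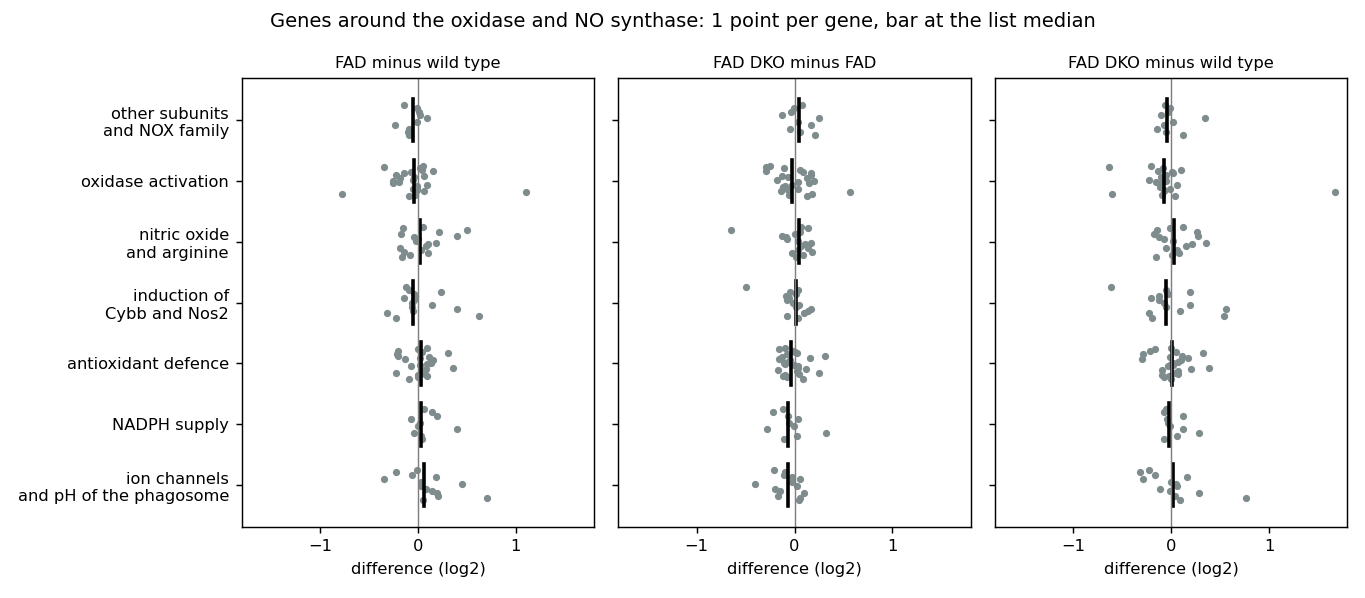
Difference between genotypes (log2, horizontal axis) for the 118 measured genes of 7 lists, 1 point per gene, with a bar at the list median, in the 3 comparisons. The medians lie between -0.08 and 0.06; points far from them include Clec7a at 1.67 in FAD DKO minus wild type and Slc7a1 at -0.65 in FAD DKO minus FAD.

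The genes whose log2 signal followed each member most closely over the 9 arrays were taken by Pearson correlation from 11531 genes at or above the median of all probe sets; the arrays share genotype and preparation, and the highest of so many correlations is high by selection. For Cybb they were Uhrf1bp1l (r = 0.958), Prim2 (0.929) and Alg8 (0.915). For Ncf1 they were Pstpip1 (r = 0.943), Prkab1 (0.938) and Wdfy3 (0.928), and for Rac2 Nsun4 (0.952), Gmppb (0.937) and Rapgef1 (0.937). For Cyba they were Snx21 (r = 0.975), Prcp (0.954) and Man2a1 (0.953), and for Ncf4 Odf2l (0.974), Pik3r4 (0.974) and Tmem81 (0.971). For Hvcn1 they were Zfp607a (r = 0.903), Mir27a (0.885) and Prrxl1 (0.875), and for Nos2 Ubac1 (0.952), Mir3075 (0.935) and Capn12 (0.922).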

How the data were processed

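RNA from sorted microglia was amplified, biotin-labelled and measured on 9 one-colour arrays, per the labels' protocols. The authors deposited 1 log2 value per probe set and array, summarized with RMA, per the submitters' processing notes; its version is not given in the sources used here. Scanner signals and detection calls were not used here.

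Of 41345 probe sets, 23521 had 1 gene symbol, and the brightest stood for a gene (22180 genes); all 7 genes had 1. Names matched RefSeq (GRCm38.p6) by gene identifier for 23328 of the probe sets. The test was limma's moderated fit (lmFit, eBayes; limma 3.58.1, R 4.3.3; 1 model of 9 arrays, a mean per genotype, 6 residual degrees of freedom, 8.98 after moderation). Tests are two-sided, and p-values are adjusted by Benjamini-Hochberg over all genes tested. Figures used Python 3.11.15 and matplotlib 3.10.9. Data of 22180 genes with 200 changed and independent noise were simulated. The fit recovered 58.2% of 1.5-fold and 88.7% of 2-fold changes in FAD against wild type. The shares were 60.3% and 84.8% in FAD DKO against FAD, and 63% and 87.2% in FAD DKO against wild type. They hold for 200 changed genes taken from all genes, whereas 9, 5 and 31 genes were called in the data. They are averages over genes with an SE below and above the median of 0.104. They therefore describe no single gene, such as Cybb with an SE of 0.204.

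The 7 genes, the lists and the tests were chosen with earlier results of these data known. From each list the text names the 3 genes with the smallest p over the comparisons, any that passed and the brightest, and for each of the 7 genes the 3 with the highest correlation. The alternatives were to keep only probe sets at or above the median of all, to quantile-normalize again, to let the variance follow a trend and be robust, to fit the 2 groups alone, to weight arrays, to average the probe sets of a gene, to test unnamed probe sets too, to block on replicate number, and to omit 1 array at a time.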

Additional observations from a re-analysis of the deposited data

How the results depend on the processing

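Of 354 values of the 7 genes under the alternatives, 345 kept their direction and their side of the threshold, 0 were called, and the lowest adjusted p was 0.13 (Ncf1 in FAD DKO against wild type). The other 9 took the opposite sign, all for differences near 0. Hvcn1 in FAD DKO against wild type was at 0.0053 with quantile normalization and between -0.0684 and 0.0311 without 1 array. Leaving out 1 array gave -0.147 to 0.0823 for Cyba and -0.101 to 0.0705 for Nos2 in FAD against wild type, -0.129 to 0.0194 for Ncf1 and -0.0685 to 0.0086 for Nos2 in FAD DKO against FAD, and -0.0667 to 0.00066 for Ncf4 and -0.136 to 0.035 for Nos2 in FAD DKO against wild type. Cybb in FAD against wild type was lowest at 0.64 when wild type replicate 1 was left out and highest at 0.995 without replicate 2. For Rac1 in FAD DKO against wild type the fits without 1 array ran from -0.0338 to 0.0111 (0.0111 without FAD DKO replicate 3 and 0.00048 without wild type replicate 2). The low-signal filter left out Nos2 and 4 of the 26 named list genes.

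The count of all genes called in FAD against wild type was 33 with the low-signal filter, 43 with a trended and robust variance, 22 with array weights and 5 with the 2 groups alone. In FAD DKO against FAD it was 11 with the filter, 3 with quantile normalization, 12 with a trended and robust variance, 0 with the 2 groups alone (limma; 5 with all groups), and 0 to 5 without 1 array. In FAD DKO against wild type it was 117, 124, 82 and 13 with the filter, the trended and robust variance, array weights and the 2 groups alone, 14 with every probe set and 2 to 28 without 1 array. The cause of these shifts was not tested.

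For arrays with the same replicate number, deviations from the genotype means had correlations from -0.11 to 0.12 over all genes. Such values cannot exclude a preparation shared by some samples, so whether the numbers pair samples is not known. With the replicate number as a block, the count was 8 in FAD against wild type, 2 in FAD DKO against FAD and 11 in FAD DKO against wild type. Without this block it was 9, 5 and 31 in the same order.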

Other observations

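Identical values occurred between arrays. Ncf1 had the same deposited value on FAD replicates 2 and 3 (8.949), Nos2 on the same arrays (5.043), Cyba on wild type replicate 2 and FAD DKO replicate 2 (9.097), and Ncf4 on wild type replicate 3 and FAD DKO replicate 3 (7.928). Of all genes tested, 60.1% had a value shared exactly by 2 or more arrays, so such ties were common in this table. How they arose was not tested.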
